A study of Mus musculus with 6 samples.

Results

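The potassium channel genes of the mouse hippocampus were taken as every gene in the deposited expression table whose symbol begins with Kcn, the stem shared by channel subunits and their auxiliary proteins. Transcripts named as antisense or overlapping RNAs of these genes were left out (Kcnab3os, Kcnd3os, Kcnmb4os1, Kcnmb4os2 and Kcnq1ot1, each with a mean under 1 FPKM). This gave 92 genes of the 32201 in the table, in 21 subfamilies. All libraries came from the hippocampus of male C57BL/6N mice, an inbred strain, aged 8 weeks that underwent chronic unpredictable mild stress, in which varied mild stressors are given in turn and which serves as a rodent model of depression. The baicalin group (3 libraries) was treated with baicalin, a plant flavonoid glucuronide, at 20 mg/kg, and the saline group (3 libraries) was given saline. An unstressed group that the labels mention is not analysed here, so both groups carried the stress and its own effect is not measured. The labels do not say that each library is a separate animal, and p-values therefore measure the spread between these libraries, which may be technical.

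Potassium channels let potassium leave or enter the cell along its electrochemical gradient, and so set the resting potential, shape the action potential, and limit release of transmitter. Voltage-gated subunits open on depolarization, Slo and SK channels respond to intracellular calcium or sodium, inward rectifiers pass current near rest and include channels opened by G proteins, and tandem-pore subunits carry leak current. Auxiliary subunits form no pore of their own and alter the traffic or gating of the subunits they bind; in the hippocampus the Kcnip proteins are best known as partners of the Kcnd subunits that carry the dendritic A-type current, and Kcnq subunits as carriers of the M current that restrains repeated firing.

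Pore-forming subunits share a short selectivity filter that strips water from potassium. To show it in the members on which the comparison below turns, the coding sequence of each gene (the longest complete one in GENCODE mouse release M21, build GRCm38, which is the mm10 assembly) was searched in frame, on the coding strand, for a motif of 5 codons in a row: a codon that begins with AC, any codon, a codon that begins with GG, a codon that begins with T and a codon that begins with GG. The motif was present in 64 of 75 pore-forming members (85.3%), in 0 of 17 auxiliary members and in 520 of 21523 genes with a complete coding sequence (2.42%). It was found in all 17 Kcna, Kcnb, Kcnc and Kcnd genes, all 10 modifier genes, all 5 Kcnq genes and all 13 Kcnk genes. Of the Kcnk genes, 10 held it at least 2 times; their subunits carry a pair of pore loops each. Only 1 of 8 Kcnh genes and 1 of 4 Kcnn genes held these letters. The sequences below are the 45 bases around the motif, with the motif in capitals and 15 bases on each side in lower case, 5′ to 3′ on the coding strand, for 5 pore-forming members with an unadjusted p under 0.05 in the treatment comparison.
Kcns1: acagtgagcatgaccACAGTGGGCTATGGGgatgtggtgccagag
Kcnj3: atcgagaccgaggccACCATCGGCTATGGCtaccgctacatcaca
Kcnk1: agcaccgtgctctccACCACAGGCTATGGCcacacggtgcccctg
Kcnb2: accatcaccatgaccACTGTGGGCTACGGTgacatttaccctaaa
Kcnc2: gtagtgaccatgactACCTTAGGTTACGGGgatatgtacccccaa

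Each stretch lies in coding exons on GRCm38. Those of Kcns1 (chr2:164164839-164164883, minus strand), Kcnj3 (chr2:55437612-55437656, plus strand), Kcnb2 (chr1:15710031-15710075, plus strand) and Kcnc2 (chr10:112456214-112456258, plus strand) lie within 1 exon. That of Kcnk1 (between 125995793 and 126025034 of chromosome 8, plus strand) is joined across an intron. Kcnk1 held 1 match, whereas most Kcnk genes held more.

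RNA sequencing of ribosomal RNA-depleted total RNA gave 61303274 to 67957752 counts per library. The members took 0.446 to 0.454% of the counts with baicalin and 0.458 to 0.473% with saline, ranges that did not overlap. Scaled to transcript length as FPKM, their sums were 693 to 710 with baicalin and 699 to 726 with saline, ranges that overlapped. Mitochondrial genes took 7.71 to 8.69% with baicalin and 7.18 to 7.82% with saline. Neuronal markers were present in every library, with a summed level of 6243 to 6374 CPM (counts scaled to library size with edgeR's TMM factors) with baicalin and 6120 to 6563 with saline, each over 6 genes. The 7 CA1 pyramidal markers summed to 776, 648 and 711 CPM in baicalin libraries 1, 2 and 3 and to 810, 809 and 780 in saline libraries 1, 2 and 3, and 5 of the 7 were lower with baicalin. The 7 dentate granule markers summed to 612, 603 and 629 CPM with baicalin and to 579, 445 and 609 with saline. Saline library 2 was the lowest by far, and the groups overlapped. Of the 7 markers, 6 were higher with baicalin. In bulk tissue, fewer cells of a type and less RNA per cell cannot be told apart.

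Levels were compared between genes as FPKM, fragments scaled to transcript length and library size. Of the 92 members, 20 averaged at least 10 FPKM over the 6 libraries, 41 from 1 to under 10, 17 from 0.1 to under 1 and 14 under 0.1. The members' mean FPKM values summed to 705, and the top 10 members made up 56.9% of that sum. Genes averaging at least 1 FPKM were tested for a treatment difference, which kept 61 members in 19 subfamilies; the other 31 are described at the end. Just inside this limit was Kcnd3 (1.01 FPKM) and just outside it Kcnk6 (0.949 FPKM).

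Auxiliary subunits were the most abundant role, with 39.8% of the summed FPKM. Kcnab2, a cytoplasmic beta subunit of Kcna channels, alone made up 22.2% and stood at 162, 153 and 159 FPKM in baicalin libraries 1, 2 and 3 and at 158, 157 and 151 in saline libraries 1, 2 and 3. Its group means were 158 ± 4.59 and 156 ± 3.68 FPKM (SD, n = 3 each), so the groups overlapped at a level above that of every other member in every library. Kcnip2, a calcium-binding partner of Kcnd channels, came second (50.9, 46.2 and 47.5 FPKM with baicalin, 47.4, 47.2 and 48.9 with saline), also clear of the next member in every library. Further down were Kcnip3 (mean 21.9 FPKM), which also acts as a transcriptional repressor, Kcnab1 (17.6), another beta subunit, Kcnmb4 (11.96), the neuronal beta subunit of the Kcnma1 channel, and Kcnip4 (8.96).

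Kcna, Kcnb, Kcnc and Kcnd pore subunits held 18.8% of the summed FPKM. Kcnd2, the main subunit of the A-type current in pyramidal cell dendrites, averaged 24.7 FPKM. Kcnc1 (17.8), of the fast channels that allow high firing rates, and Kcnc4 (11.9) were lower, and the axonal channels Kcna2 (9.69) and Kcna1 (9.46) lay just under 10 FPKM. Modifier subunits (Kcnf, Kcng, Kcns and Kcnv), which make no channel alone and join Kcnb subunits, held 6.33%, led by Kcnf1 (8.83), Kcns2 (7.79) and Kcnv1 (7.68). Kcnq5 (10.9) and Kcnq3 (10.1) were at a similar level, and the Kcnq genes together held 3.76%. Kcnh genes, of the ether-a-go-go family, held 3.78%, with Kcnh3 (12.9) the highest.

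Inward rectifiers held 14.9% of the summed FPKM. Kcnj4 (mean 27.9 FPKM), a classical neuronal inward rectifier, Kcnj10 (24.5), the astrocyte channel that takes up potassium after firing, and Kcnj9 (21.5), a G protein-gated subunit, were the highest. The G protein-gated subunits Kcnj3 (7.81) and Kcnj6 (4.14) were lower than Kcnj9, and Kcnj11 (10.3), the pore of ATP-sensitive channels, lay between them and Kcnj9. Tandem-pore genes held 8.84%. Their highest, Kcnk1 (33.2), came next after Kcnip2 among all members by mean. It was above Kcnj4 in each library, although the ranges of these genes over the libraries overlapped. Kcnk9 (10.2) and Kcnk2 (8.37), a mechanosensitive leak channel, followed within the role. The Slo and SK families (Kcnma, Kcnn, Kcnt and Kcnu) held 3.83%, led by Kcnma1 (12.1), the large-conductance calcium-activated channel, with Kcnn2 (5.54), a small-conductance channel of the afterhyperpolarization, and the sodium-activated Kcnt1 (4.09) behind it.

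**Figure D1:**
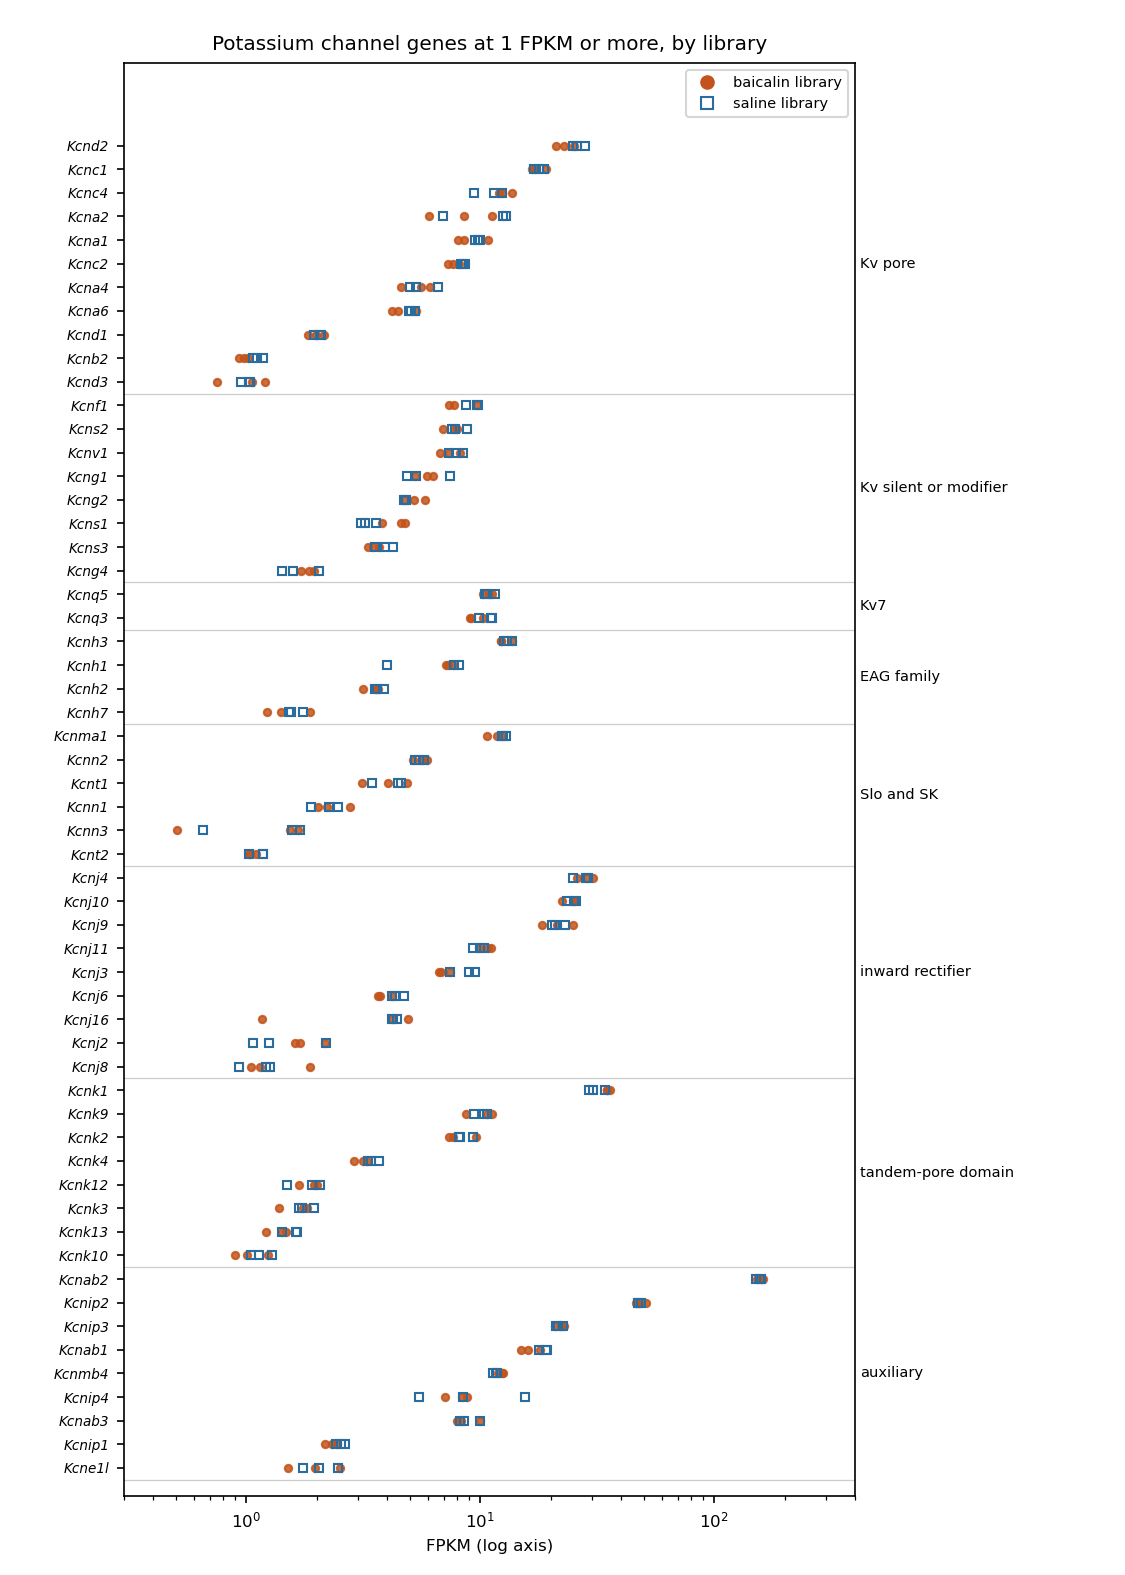
FPKM (log axis) of 57 of the 61 members averaging at least 1 FPKM, in each of the 3 baicalin libraries (filled circles) and 3 saline libraries (open squares), ordered by role and by mean level. Kcnab2 stands apart at a mean of 157 FPKM, and for most members the libraries of both groups lie on top of each other.

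The comparison of baicalin with saline asks which of these transcripts differ in stressed mice that received the compound. No member passed: in the quasi-likelihood test of edgeR, adjusted by the method of Benjamini and Hochberg over all 13153 genes tested, 0 of 61 members were called at 0.05, where 6 genes were called in all (0.0456%). DESeq2 also called 0 members, with 211 genes called in all (1.61%). At an unadjusted p under 0.05 in edgeR there were 8 of 61 members (13.1%), against 11.8% of all genes, a share near the background. Of these 8, Kcns1 and Kcnk1 were higher with baicalin (6.33% of all genes were higher at this level) and 6 were lower (5.45% of all genes), among them Kcnj3, Kcnb2, Kcnab1, Kcnc2 and Kcnq3. The groups did not overlap, in scaled CPM, for 8 of 61 members (13.1%), 3 higher and 5 lower, against 19.4% of all genes tested (9.93% higher, 9.52% lower).

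Most members lay slightly lower with baicalin. The log2 change (baicalin minus saline) was negative for 38 of 61 members (62.3%) and for 50.2% of all genes, with a median of -0.05 over the members and -0.00063 over all genes tested. The changes were small: they ran from -0.31 for Kcna2 to 0.42 for Kcns1, and 53 of 61 were within 0.25 of 0. The 95% interval of the change lay within 0.5 on either side of 0 for 50 members and within 1 for 56, so changes of 2-fold or more lay outside the interval for 56 of the 61. Scaling the libraries as TPM does moved the median of all genes to -0.08 and that of the members to -0.13. Under it 82.0% of members and 70.5% of all genes were negative. At an unadjusted p under 0.05 in edgeR, 1 member was higher and 9 were lower. The matching shares of all genes are not given, so these counts cannot be set against the background. The small positive changes of Kcnab2, Kcnip2, Kcnip3, Kcnj4, Kcng1 and Kcnn2 were negative under that scaling.

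**Figure D2:**
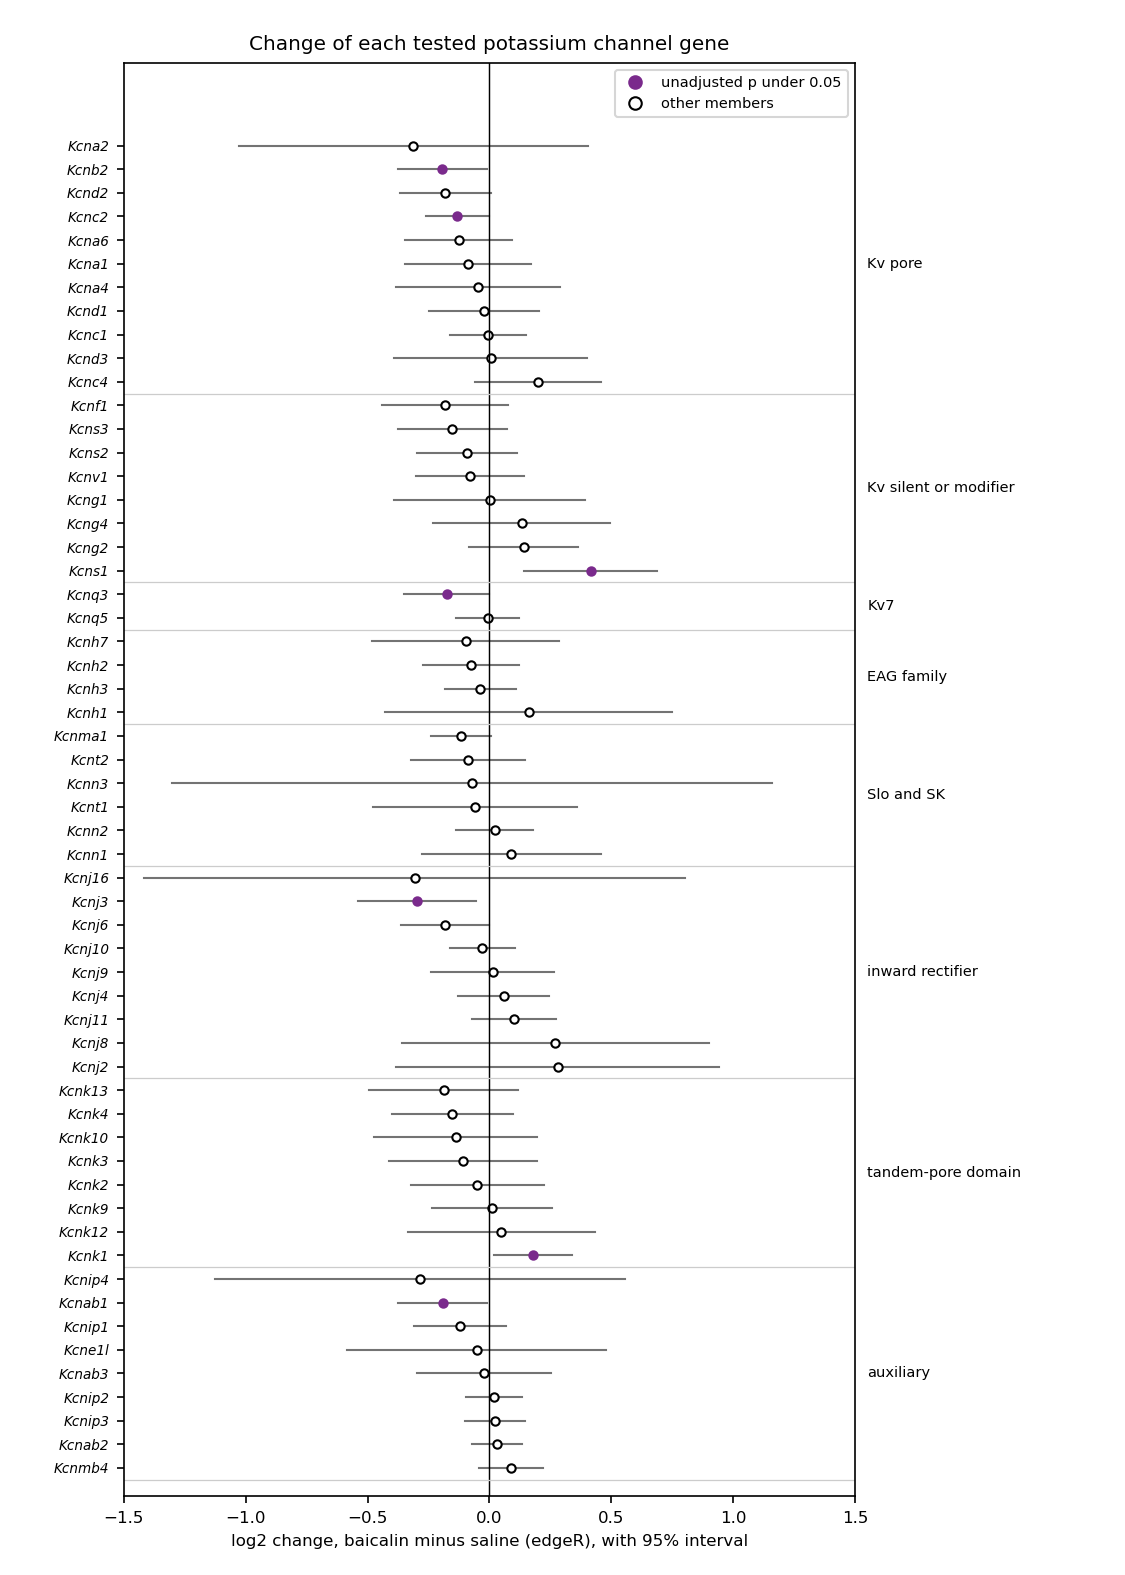
Log2 change (baicalin minus saline, edgeR) of 57 of the 61 tested members with its 95% interval, grouped by role; filled purple points are 7 of the 8 members with an unadjusted p under 0.05. The points run from -0.31 to 0.42, and none passed after adjustment over all genes.

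Modifier subunits held the member with the smallest p. Kcns1 (ENSMUSG00000040164, chromosome 2, 164163619 to 164171113), which modulates the gating of Kcnb channels when it joins them, stood at 11.9, 14.2 and 15.1 CPM in baicalin libraries 1, 2 and 3 and at 11.1, 9.72 and 10.1 in saline libraries 1, 2 and 3. All baicalin libraries were above all saline libraries, although baicalin library 1 was close to saline library 1. The log2 change was 0.42 ± 0.11 (SE), 1.33-fold, with an adjusted p of 0.335 in edgeR. Its unadjusted p was 0.00919, and it was under 0.05 in all 19 alternative analyses that tested the gene, with a smallest adjusted p of 0.107 (DESeq2). Those analyses reuse the same libraries. Across the 8 tested modifier genes 4 were higher and 4 lower, with a median of -0.04. The 3 tested Kcng genes were each at or above 0 (Kcng1 0.0012, Kcng2 0.14, Kcng4 0.13; Kcng1 was at -0.07 under TPM-like scaling), while Kcnf1 (-0.18), Kcns2 (-0.09) and Kcnv1 (-0.08) were below 0.

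Of the Kcnq subunits, Kcnq3 (ENSMUSG00000056258, chromosome 15, 65986387 to 66286642) stood at 175, 153 and 157 CPM with baicalin and 168, 191 and 188 with saline. Baicalin library 1 lay above saline library 1, so the groups overlapped. Its log2 change was -0.17 ± 0.07 (SE; adjusted p = 0.423 in edgeR), so it did not pass adjustment. Kcnq5, the most abundant gene of the subfamily, was at -0.01 (95% interval -0.14 to 0.12). Over the 4 tested Kcnq genes, 1 was above 0 and 3 below, with a median of -0.09.

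Of the 13 tested Kcna, Kcnb, Kcnc and Kcnd genes, 10 had negative changes and 3 positive ones, with a median of -0.09. Kcnb2 (ENSMUSG00000092083, chromosome 1, 15287254 to 15723750), a delayed rectifier, stood at 16.3, 17.7 and 17.3 CPM with baicalin and 19.4, 18.7 and 20.6 with saline, groups that did not overlap (-0.19 ± 0.08, adjusted p = 0.415 in edgeR). Kcnc2 (ENSMUSG00000035681, chromosome 10, 112271121 to 112466304), a fast channel of interneurons, stood at 63.4, 66.5 and 60.6 CPM with baicalin and 68.2, 69.9 and 70.7 with saline (-0.13 ± 0.05, adjusted p = 0.420 in edgeR). Here too every baicalin library was below every saline library, by a small margin. Kcnd2 was at -0.18 ± 0.08, with 150.1, 125 and 138 CPM against 148, 154 and 166 and an adjusted p of 0.433 in edgeR. All 4 tested Kcna genes were below 0 (Kcna1 -0.09, Kcna2 -0.31), whereas Kcnc4 was at 0.20 and Kcnc1 at -0.01 (0.0018 under upper-quartile scaling).

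Among the inward rectifiers the G protein-gated subunits differed from each other in value. Kcnj3 (ENSMUSG00000026824, chromosome 2, 55435970 to 55598145), the subunit common to most neuronal G protein-gated channels, stood at 44.8, 40.8 and 40.8 CPM with baicalin and 44.5, 53.9 and 57.0 with saline. Saline library 1 was slightly below baicalin library 1, so the groups overlapped, while the other 2 saline libraries were above all the rest. The log2 change was -0.30 ± 0.10 (SE; adjusted p = 0.381 in edgeR). Antisense gene Gm26794 covers 31.1% of the exonic bases of Kcnj3 in GENCODE M21 and stood at 4.38, 4.20 and 3.97 FPKM with baicalin and 4.56, 4.96 and 4.89 with saline. The sources used here do not state a strand setting, so the reads of this pair cannot be told apart. Kcnj6, another G protein-gated subunit, stood at 33.1, 36.9 and 32.6 CPM with baicalin and 37.9, 37.1 and 41.3 with saline, without overlap (-0.18 ± 0.08, adjusted p = 0.423 in edgeR). Kcnj9 was at 0.01 (95% interval -0.24 to 0.27). Over the 9 tested Kcnj genes 5 were above 0 and 4 below, with a median of 0.01; Kcnj10 was at -0.03, Kcnj11 at 0.10 and Kcnj4 at 0.06 (-0.02 under TPM-like scaling).

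Kcnk1 (ENSMUSG00000033998, chromosome 8, 125995170 to 126030685), a weakly conducting leak subunit found in astrocytes and neurons, was the most abundant member with an unadjusted p under 0.05. It stood at 92.3, 89.3 and 91.1 CPM with baicalin and at 77.7, 75.5 and 87.7 with saline. The baicalin libraries lay close together and above all saline libraries, although saline library 3 came within a small margin. The log2 change was 0.18 ± 0.07 (SE; adjusted p = 0.395 in edgeR). Of the runs that left out 1 library, only that without saline library 3 gave Kcnk1 an unadjusted p under 0.05 in edgeR. Of the 8 tested tandem-pore genes 3 were above 0 and 5 below, with a median of -0.08, and Kcnk2 was at -0.05.

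The remaining roles held no pore-forming member under that p. Of the 6 tested Slo and SK genes 2 were above 0 and 4 below (median -0.07); Kcnma1 stood at 232, 238 and 212 CPM with baicalin and 242, 252 and 245 with saline, without overlap (-0.12 ± 0.05, adjusted p = 0.443 in edgeR), and Kcnn2 was at 0.02 (-0.05 under TPM-like scaling) and Kcnt1 at -0.06. Of the 4 tested Kcnh genes 1 was above 0 and 3 below (median -0.06). Of the 9 tested auxiliary genes 4 were above 0 and 5 below (median -0.02). Among them Kcnab1 (ENSMUSG00000027827, chromosome 3, 65109384 to 65378219) stood at 179, 148 and 161 CPM with baicalin and 176, 189.9 and 191 with saline, overlapping through baicalin library 1 (-0.19 ± 0.08, adjusted p = 0.415 in edgeR). Kcnab2, the most abundant member, was at 0.03 (95% interval -0.07 to 0.13), and Kcnip2 at 0.02 (-0.10 to 0.14), so their intervals hold only small changes. Kcnip3 was at 0.02 and Kcne1l, a small membrane-spanning modulator, at -0.05. Kcnmb4, at 0.09, did not overlap between groups, and 31.5% of its exonic bases are shared with Kcnmb4os1 and Kcnmb4os2. Of the 61 tested members, 24 share exonic bases with another gene, 13 of them at least 5%.

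**Figure D3:**
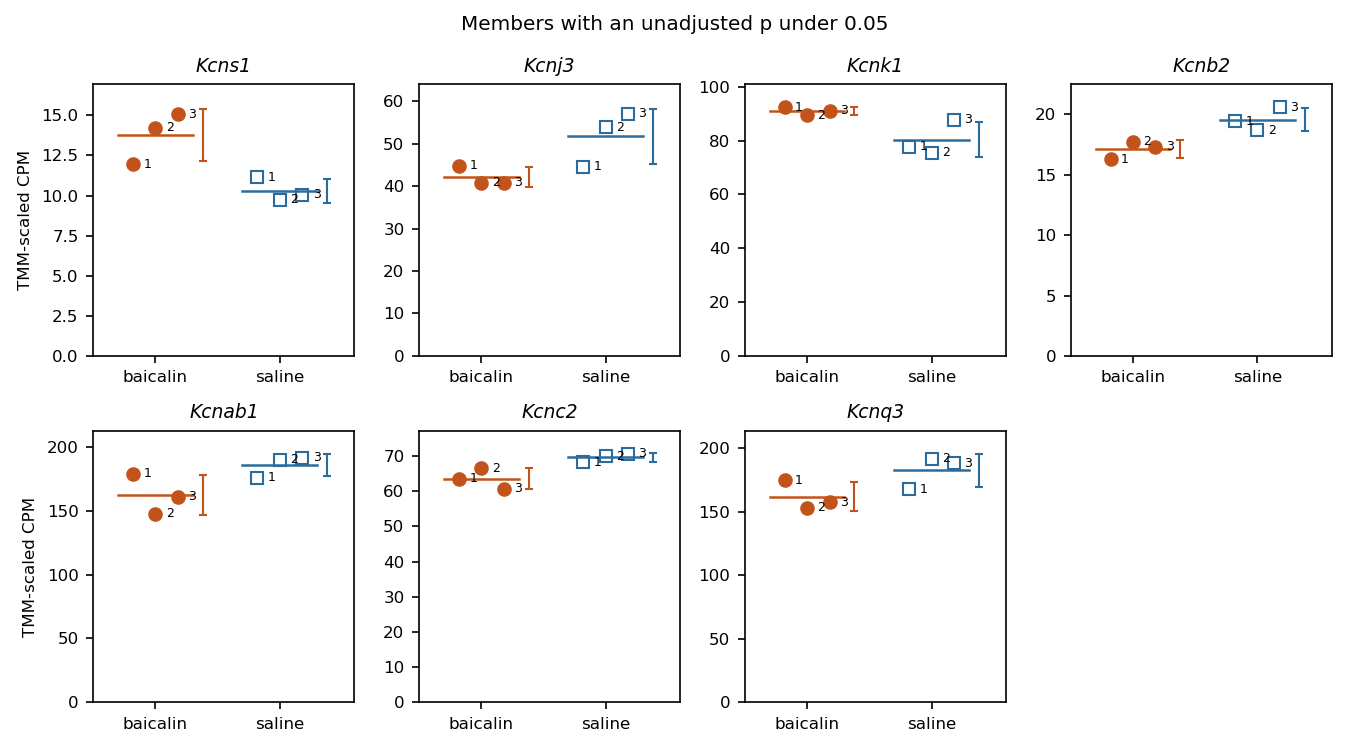
TMM-scaled CPM (axis from 0) of 7 of the 8 members with an unadjusted p under 0.05, for each of 3 baicalin (filled) and 3 saline (open) libraries, numbered by replicate; lines are group means and the bars beside them 1 SD. The groups do not overlap for Kcns1, Kcnk1, Kcnb2 and Kcnc2, and they overlap for Kcnj3, Kcnab1 and Kcnq3.

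These 8 rested on single libraries to different degrees, while each kept its sign in every alternative analysis. They were picked by p in the same libraries that the alternatives reuse, so the kept sign is not independent support. Kcna1 and Kcnf1, not among the 8, kept their sign too. The lower members at an unadjusted p under 0.05 in edgeR were 6 with all libraries. They numbered 1 without baicalin library 3, without saline library 2 (Kcnb2) or without saline library 3. There were 3 without saline library 1, 6 without baicalin library 1 and 7 without baicalin library 2. Those 7 included Kcnj6, Kcna1, Kcnf1 and Kcnma1, which were not among the 6. The share of all genes at that level in these runs is not given. The higher members numbered 1 in place of 2 without baicalin library 1, 2 or 3 or without saline library 2 (Kcns1 in each case). There were 3 without saline library 3 (Kcns1, Kcnk1 and Kcnj2) and 2 without saline library 1 (Kcns1 and Kcnc4). Of these runs, only that without saline library 3 kept Kcnk1. The CA1 marker sum was lower in every baicalin library than in every saline library, and its part in these values was not tested.

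Transcript length moved with the change. Over all genes tested, in 5 bins of length, the median log2 change went from 0.11 in the shortest bin (median 1179 bp) to -0.07 in the longest (median 10930 bp). The members are long, with a median of 5879 bp against 4602 bp for all genes; 18 of the 61 fell in the longest bin, with a median change of -0.11, and 16 in the bin before it, with -0.06. With the trend with length removed, the members' median was -0.01 and 60.7% of them were negative, against 50.8% of all genes. An unadjusted p under 0.05 was left for Kcns1 (0.39) and Kcnj3 (-0.28) alone among the members. The share of all genes at that level with the trend removed is not given.

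**Figure D4:**
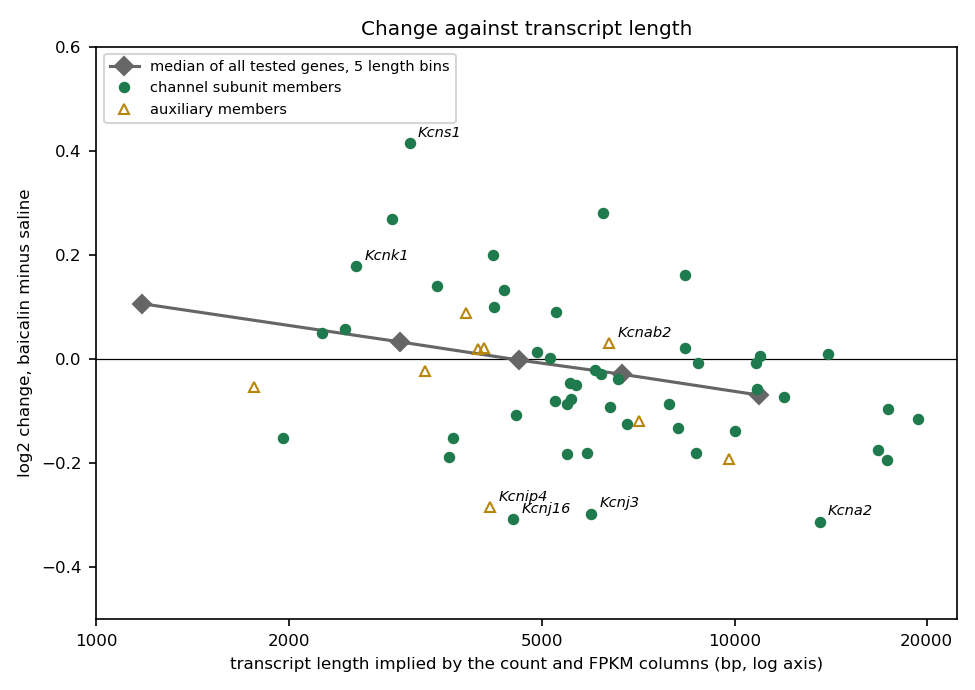
Log2 change (baicalin minus saline) of 57 of the 61 tested members against transcript length in bp (log axis), for channel subunits (circles) and auxiliary members (triangles), with the median of all tested genes in 5 length bins (diamonds). The line falls from 0.11 to -0.07, and the long member Kcna2 lies lower than its last point while Kcns1 and Kcnk1 lie above it.

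The members varied over the 6 libraries by a median of 9.57% (coefficient of variation of scaled CPM), against 8.67% for all genes tested. Of the 61, 33 varied by under 10% and 8 by over 20%; those described are named because of that spread, after their values were seen. Kcnn3, a small-conductance channel gene, stood at 18.5, 6.07 and 20.3 CPM with baicalin and 20.4, 7.94 and 18.8 with saline, low in the second library of each group. Kcnj16, a partner of Kcnj10 in glia, stood at 5.38, 19.0 and 22.6 CPM with baicalin and 20.0, 19.1 and 19.1 with saline, low in baicalin library 1 alone. Its log2 change was -0.31 with all libraries and 0.10 without that library.

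Kcnip4, a Kcnd partner, stood at 29.6, 36.4 and 35.4 CPM with baicalin and 22.9, 35.6 and 65.1 with saline, with saline library 3 far above saline library 1. Its log2 change was -0.28 ± 0.35 with all libraries and ranged from -0.57 to 0.21 when 1 library was left out. Kcnh1 stood at 64.8, 60.9 and 61.3 CPM with baicalin and 68.1, 34.0 and 65.2 with saline, low in saline library 2 alone. Also in this set were Kcna2 (lowest in baicalin library 1 and highest in saline library 3, 2.12-fold apart), Kcnj8, the vascular ATP-sensitive subunit (2.05-fold), and Kcnj2 (2.04-fold). For each of the 7 members described the group difference was smaller than the larger of the SDs within the groups.

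**Figure D5:**
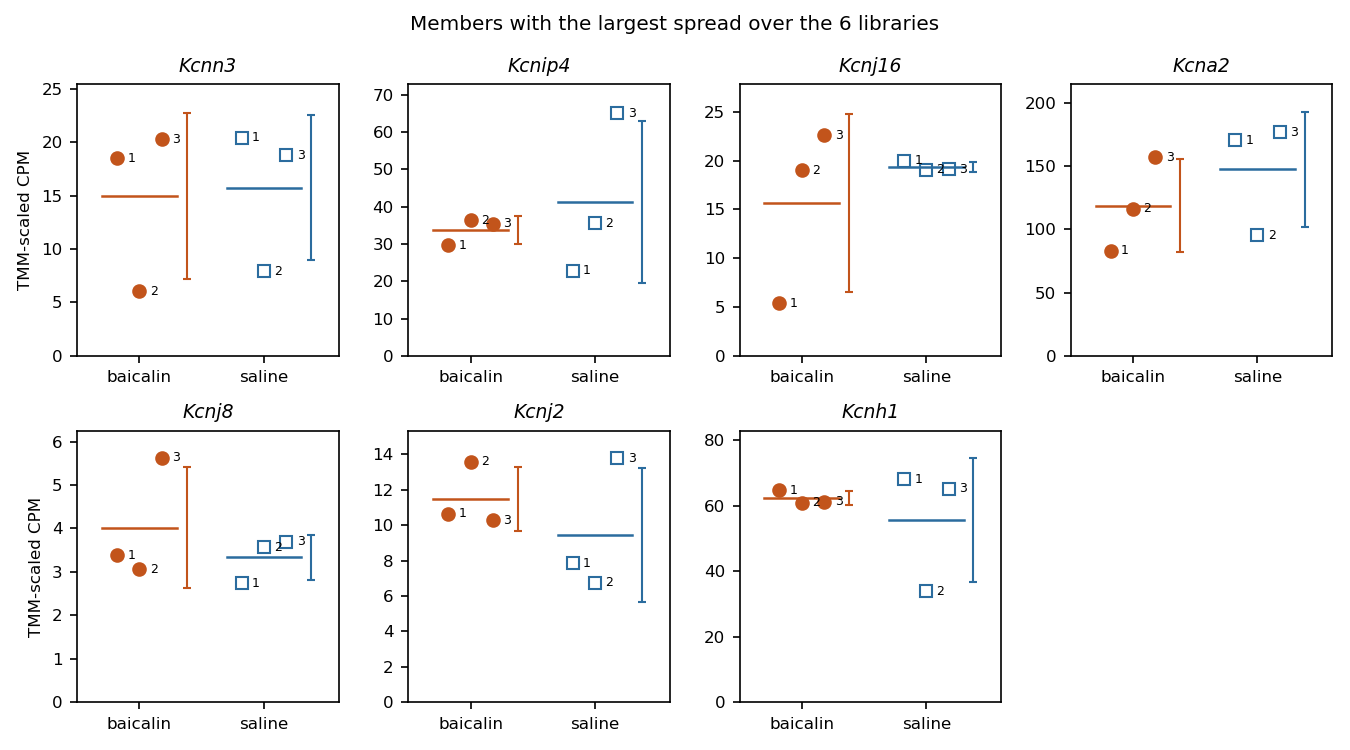
TMM-scaled CPM (axis from 0) of 7 of the 8 members with the largest spread, for each of 3 baicalin (filled) and 3 saline (open) libraries, numbered by replicate; lines are group means and the bars beside them 1 SD. Kcnj16 is low in baicalin library 1 alone and Kcnh1 in saline library 2 alone.

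The 31 members below 1 FPKM fell below the limit of the test, and 1 of them, Kcnj15, had 0 counts in every library. They include genes known mainly from heart, epithelia or other organs, such as Kcnq1 (0.0612 FPKM), Kcne1 (0.00279) and Kcnj5 (0.0755). When genes averaging at least 0.1 FPKM were tested, 17 more members entered and 0 passed adjustment in edgeR. The smallest p among them, and so named after its value was seen, was that of Kcna5, a delayed rectifier, which stood at 0.867, 0.915 and 0.721 FPKM with baicalin and 0.317, 0.448 and 0.532 with saline. All baicalin libraries lay above all saline libraries, with a log2 change of 0.95 ± 0.23 (SE) and an adjusted p of 0.439 in edgeR. Kcnj13, a choroid plexus channel, stood at 0.0805, 0.160 and 0.0423 FPKM with baicalin and 0.0645, 0.150 and 1.14 with saline, high in saline library 3 alone. In that library the 6 meninges markers summed to 82.1 CPM, against 33.3 to 40.0 in the other 5, and the 6 choroid plexus markers, a list that holds Kcnj13 itself, to 87.3 CPM, against 42.6 to 122 in the others. Their part in the Kcnj13 value was not tested. Kcnj13 also shares 49.1% of its exonic bases with Gigyf2.

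Other genes of potassium handling were read from lists chosen by function, with 0 genes called in any list by edgeR. Proteins outside the Kcn names that bind or anchor these channels had 14 tested members, 5 above 0 and 9 below (median -0.03), of which 1, Vapa (0.13), a binding partner of Kcnb channels, had an unadjusted p under 0.05. Also in that list were Amigo1, a partner of Kcnb channels, at 0.30 ± 0.16 (SE) and Ank3 at -0.46 ± 0.28. Ank3 anchors Kcnq channels at the axon initial segment. Of the 18 tested genes of G protein signalling to Kcnj channels, 16 were below 0 (88.9%, against 50.2% of all genes tested), with a median of -0.09, and 4 were lower at an unadjusted p under 0.05 (22.2%, against 5.45% of all genes). Rgs8 (-0.12) and Rgs7bp (-0.16), both regulators of G protein signalling, were among the 16. The 10 tested sodium-potassium pump genes had a median near 0, with 5 on each side. Fxyd6, a pump regulator, was at 0.12 ± 0.07 (SE) and Atp1b2, the glial beta subunit, at -0.22 ± 0.17. Of 5 tested potassium-chloride cotransporter genes 4 were below 0, with Slc12a5, the neuronal chloride exporter, at -0.13. Among the hyperpolarization-activated channel genes, which pass potassium and sodium, Hcn2 was at 0.03 ± 0.07 (SE) and Hcn3 at -0.37 ± 0.17.

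The closest channel families served as a comparison. The Cacn genes were taken by symbol, so they hold the Cacng genes beside the other subunit genes of voltage-gated calcium channels. Of 26 Cacn genes, 21 were tested and 19 of them were below 0 (90.5%, against 50.2% of all genes tested), with a median of -0.10. The 2 above 0 were Cacng4 (0.0038) and Cacng5 (0.033). At an unadjusted p under 0.05 in edgeR, 7 were lower (33.3%, against 5.45% of all genes). The tested Cacn genes had a median transcript length of 10230 bp. In the longest length bin (median 10930 bp) the median change of all genes was -0.07. Of 14 sodium channel genes (Scn), 8 were tested, 6 above 0 and 2 below, with a median of 0.05 and a median transcript length of 9484 bp. Among these 8, 1 was lower at an unadjusted p under 0.05 in edgeR, and the lowest log2 change was -0.75. The part of length in the values of both families was not tested. The Kcn median of -0.05 lay between these, and no difference between the families was tested.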

How the data were processed

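The deposited table gives, per the file headers, a whole-number count and an FPKM value (fragments scaled to transcript length and library size by the authors) for each gene and library. The build was mm10 and the tools included StringTie, HISAT2, limma, DESeq2 and bcl2fastq 2.0, per the submitters' processing notes; the sources used here do not state roles, options or strand. A further 12 columns of sample values match none of the labels and stayed out. Counts and FPKM were proportional within each gene (SD of the log2 ratio 0.00112 over 12236 genes).

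Counts of the 13153 genes averaging 1 FPKM or more were scaled by TMM and tested with edgeR 4.0.16 (quasi-likelihood, R 4.3.3), with a term for treatment and Benjamini-Hochberg adjustment (threshold 0.05). DESeq2 1.42.0, limma 3.58.1, other scalings, filters and pseudocounts, a replicate block, a length correction and leaving out each library were alternatives, 20 in all. The procedure was run on simulated data with planted changes larger than those of the tested members. That run does not show how well changes of their size are found. The SE is the log2 change over the square root of F. The members and lists were chosen with earlier results of these data known. The members named by rule were the 10 with the smallest p in each direction, the most abundant of each subfamily and a set of well-known channels; those named for other reasons are said to be so or are given by level, role or spread. Some members are not reported here. Same-numbered libraries did not deviate together (r = 0.091, 0.0524 and -0.0238), so numbers were not taken as pairs. Positions of genes are those of the deposited table. Sequences came from GENCODE M21 on GRCm38; the RefSeq promoter table held 67 of the 92 members and was not used.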

Additional observations from a re-analysis of the deposited data

How the results depend on the processing

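No potassium channel gene was called in any of the 20 alternatives. The number of all genes called, 6, became 211 with DESeq2, 0 with a replicate block and 0 with the replicate block and the length trend removed together, and ran from 2 to 39 when 1 library was left out (2 when baicalin library 3 and 39 when baicalin library 1 was omitted, 10 and 14 when saline library 2 or 3 was). With the replicate block, 1 member was lower and 2 higher at an unadjusted p under 0.05. The share of all genes at that level is not given for any alternative. Replicate numbers are not known to pair the libraries, and not every library correlated best with its own number. The members' median log2 change, -0.05, was -0.13 under TPM-like scaling and negative in all 20 alternatives.

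Of 712 alternative values for 36 members named by rule, 673 kept their sign and 39, in 14 members, did not. The cause was not tested. Under TPM-like scaling the log2 change was -0.048 for Kcnab2, -0.059 for Kcnip2, -0.018 for Kcnj4, -0.056 for Kcnip3, -0.075 for Kcng1 and -0.055 for Kcnn2. Upper-quartile scaling gave 0.0018 for Kcnc1 and 0.0014 for Kcnq5. Removing the length trend gave 0.051 for Kcnc1 and 0.037 for Kcnq5, and with the replicate block as well it gave 0.051 and 0.038. Kcng1 was at -0.00046 with no filter, -0.0024 with a filter of 0.1 FPKM and -0.0065 with one of 5 FPKM. Leaving out 1 library moved Kcnc1 from -0.063 to 0.032, Kcnq5 from -0.032 to 0.033, Kcnip2 from -0.025 to 0.055, Kcnj4 from -0.0010 to 0.11, Kcnip3 from -0.010 to 0.050 and Kcng1 from -0.11 to 0.21. It moved Kcnn2 from -0.016 to 0.064, Kcne1l from -0.25 to 0.11, Kcnk2 from -0.18 to 0.029, Kcnj10 from -0.064 to 0.014, Kcnt1 from -0.21 to 0.085, Kcnj8 from -0.052 to 0.43 and Kcnip4 from -0.57 to 0.21. With a filter of 0.1 FPKM or none, 5 and 6 members were higher at an unadjusted p under 0.05 in place of 2, as more members were tested.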
